A study of Mus musculus with 51 samples.

Results

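The genes described here are 10 mouse genes of fatty acid and triglyceride synthesis: Acly, Acaca, Fasn, Elovl6, Scd2, Gpam, Dgat1, Dgat2, Srebf1 and Thrsp. They were chosen by name for their place in the pathway and found by gene symbol among the 48321 symbols of each count table. All 10 passed the filter on low counts, as did 12762 genes of batch 1 and 13093 of batch 2 in all. Fatty acid synthesis starts from citrate: ACLY releases acetyl-CoA in the cytosol, ACACA carboxylates it to malonyl-CoA, and FASN joins these units into palmitate. ELOVL6 lengthens the chain, stearoyl-CoA desaturases such as SCD2 add a double bond, and the products are esterified to glycerol by GPAM at the start and by DGAT1 or DGAT2 at the end of triglyceride assembly. SREBF1 encodes the transcription factor SREBP1, which drives many of these enzymes, and THRSP is a small nuclear protein of lipogenic tissues. Fat cells and liver are the classical sites of the pathway, and skeletal muscle uses it at a low rate.

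The 51 libraries came from whole gastrocnemius muscle, 1 library per animal, and count the 3′ ends of transcripts. Batch 1 held 4 groups: Bmal1fx/fx controls on regular chow (4 animals), Bmal1KO on regular chow (3), Bmal1fx/fx controls on a high-fat diet (7) and Bmal1KO on a high-fat diet (5). In batch 2 every animal was on a high-fat diet, and the groups were Bmal1fx/fx controls (8) and Bmal1KO (4), Vhlfx/fx controls (6) and VhlKO (4), and Bmal1fx/fx;Vhlfx/fx controls (6) and Bmal1KO;VhlKO (4), called the double knockout below. Bmal1 encodes a core transcription factor of the circadian clock, and VHL marks hypoxia-inducible factors for breakdown. The Bmal1 knockout is specific to skeletal muscle in the study's design text; the Cre driver, the hour of tissue collection, age and sex are not stated in the labels. Every knockout was compared with the floxed controls of its own line, and diet within a genotype.

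Depth ran from 6945247 to 14717795 counts per library, and levels are given in CPM, the count scaled to the TMM-adjusted size of its library. Of 116 pairs of libraries of 1 group, none held identical values. The summed level of 6 skeletal muscle markers was 69002 to 121190 CPM over all libraries, and it was lower in VhlKO (69002 to 79921) and in the double knockout (80661 to 82442) than in their controls (at least 98358 and 109370); the part of this in the results was not tested. Other tissue was also present. The summed level of 6 macrophage markers had a median of 105 CPM in VhlKO against 63.7 in controls. It was 68.1 against 61.8 in the double knockout and 52.1 against 71.1 in Bmal1KO of batch 2. Its part in the results was not tested. Schwann cell markers had a median of 54.9 CPM in VhlKO against 67.3, and 76.9 in the double knockout against 66.6. A score of 3 defining adipocyte markers (Adipoq, Plin1 and Cidec, mean log2 CPM) was 3.13 ± 0.97 (SD, n = 4) in VhlKO against 4.28 ± 0.93 (n = 6) in Vhlfx/fx. It was 3.05 ± 0.32 (n = 4) in the double knockout against 4.26 ± 0.34 (n = 6) in its controls. Bmal1KO animals on high-fat diet had 4.26 ± 0.55 (n = 5) against 3.55 ± 1.15 (n = 7) in batch 1, and 4.12 ± 0.61 (n = 4) against 4.64 ± 0.55 (n = 8) in batch 2. On chow the score was 2.65 ± 1.09 (n = 3) in Bmal1KO against 3.64 ± 1.18 (n = 4). The median log2 fold change of 10 adipocyte markers, these 3 among them, was −0.91 with Vhl loss and −0.87 with double loss. Their summed CPM, in which the most abundant markers weigh most, went the other way by its median. It was 548 in VhlKO against 435 in controls, and 884 in the double knockout against 580. Keratinocyte markers reached 78.8 CPM in Bmal1KO animal 6 and 51.02 CPM in double knockout animal 4 of batch 2, and lymphocyte markers reached 50.4 and 60.8 CPM in chow control 2 and chow Bmal1KO animal 1.

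A gene was called where edgeR's quasi-likelihood test gave a Benjamini-Hochberg adjusted p under 0.05 over all genes of the batch. Fold changes are on the log2 scale with their standard error. Each p-value tests a difference between groups against the spread between animals, estimated over all groups of the batch. Diet called none of the 10 genes in the floxed controls, where 2.37% of all genes passed, and none in the Bmal1 knockouts, where 3.28% passed. An unadjusted p under 0.05 was held by 2 of the 10 and 1619 of all 12762 genes in controls, and by 0 and 2039 in knockouts. The test of diet by genotype called 0% of all genes and none of the 10 (unadjusted, 1 of the 10 and 575 of 12762). Loss of Bmal1 called 1 gene of the 10 on high-fat diet in batch 1 (Thrsp, higher), beside 9.00% of all genes. On chow it called none, beside 3.84% (unadjusted, 2 of the 10 and 1743 of 12762). In batch 2 it again called 1 gene (Dgat2, lower), beside 13.9%. The 24 high-fat-diet libraries of Bmal1fx/fx and Bmal1KO, fitted over both batches with a batch term, called Dgat2 and Thrsp, beside 22.4%. That fit was added after the data were seen. Loss of Vhl called 5 of the 10, 3 higher (Scd2, Srebf1 and Thrsp) and 2 lower (Dgat1 and Dgat2), beside 37.2% of all genes. Double loss called 5, 3 higher (Acly, Scd2 and Srebf1) and 2 lower (Acaca and Dgat2), beside 35.4%. The median log2 fold change of the 10 was −0.32 for Vhl loss and 0.17 for double loss, against 0.01 over all genes in both, so the set had no common direction.

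**Figure D1:**
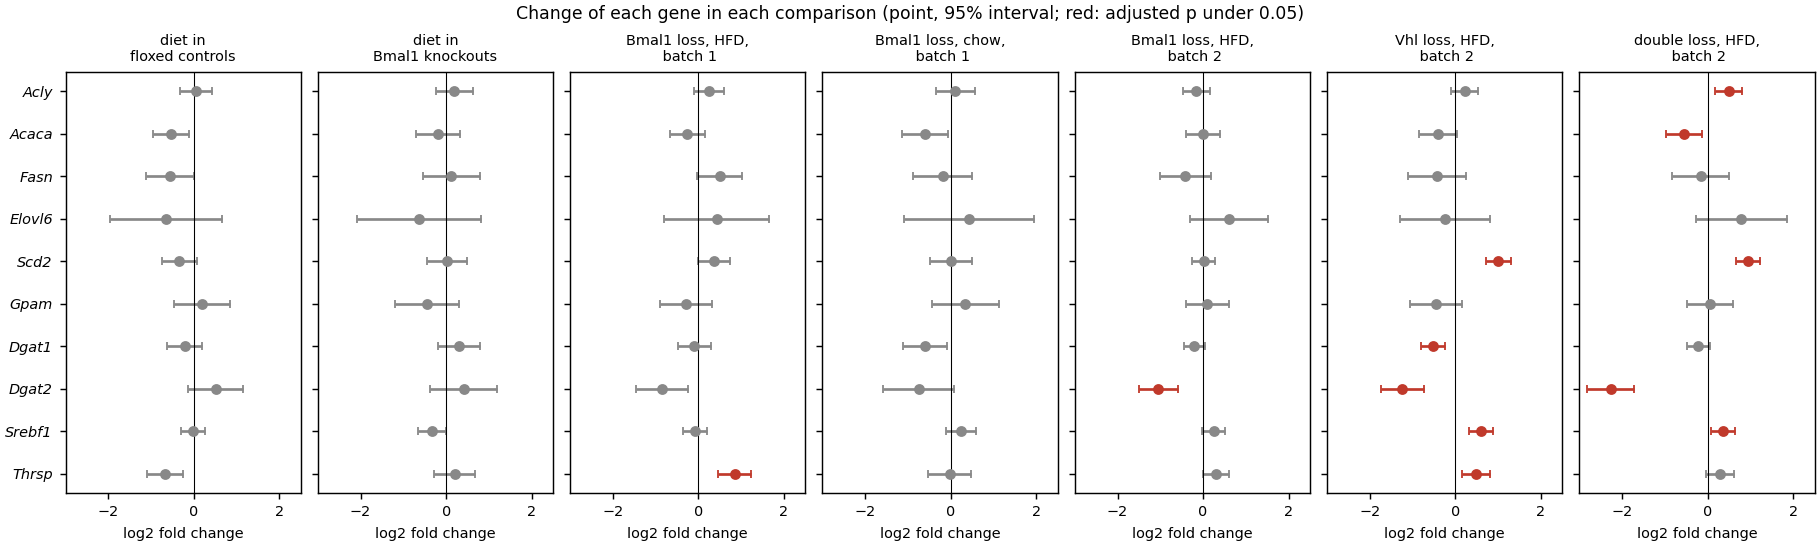
Log2 fold change of each gene (rows) in each of the 7 comparisons of 2 groups (panels), as a point with its 95% interval; red marks an adjusted p under 0.05. Dgat2 lies left of 0 in all 5 knockout panels, and Scd2 lies near 1 with Vhl loss and double loss.

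Dgat2, one of the enzymes that complete triglyceride assembly, had the largest fold change of the 10 with Bmal1 loss in batch 2, with Vhl loss and with double loss. The gene lies on the minus strand of chromosome 7 (99153658 to 99182719, GRCm38). In batch 2 the double knockouts held 4.78, 7.21, 8.29 and 10.6 CPM, and their controls 29.6 to 44.4 with a median of 36.1. Every double knockout was below every control, by a factor of 4.83 in the fit (log2 −2.27 ± 0.26, adjusted p = 7.7e-08). VhlKO animals held 10.8, 14.5, 15.4 and 27.1 CPM, and Vhlfx/fx animals 28.6 to 61.6 with a median of 36.4. Here too the groups did not overlap, though VhlKO animal 4 came close to the lowest control (log2 −1.24 ± 0.24, adjusted p = 1.7e-04). In a bulk sample like these, fewer cells of a type and less RNA per cell cannot be told apart.

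Bmal1KO animals of batch 2 held 15.7, 16.5, 19.5 and 27.8 CPM of Dgat2, and their controls 27.0 to 49.5 with a median of 42.7. Animal 7, the highest knockout, was just above the lowest control, and the other 3 knockouts were below all 8 controls. The fold change was −1.04 ± 0.22 (adjusted p = 0.0013). In batch 1 on high-fat diet the knockouts held 8.00, 9.23, 12.2, 12.4 and 20.8 CPM and the controls 14.0 to 30.0 with a median of 23.4. Animal 4 alone of the knockouts was within the control range, and the fold change of −0.85 ± 0.28 did not pass (adjusted p = 0.081). It passed without knockout animal 4 (−1.11, adjusted p = 0.017), without control animal 7 (−0.95, adjusted p = 0.047) and with DESeq2 (adjusted p = 0.036). With any other single library left out it did not pass (adjusted p up to 0.19). Of the other settings some passed and some did not (adjusted p up to 0.16). On chow the knockouts held 8.40, 9.38 and 10.4 CPM and the controls 9.86, 10.9, 17.2 and 26.1, a fold change of −0.75 ± 0.39 (adjusted p = 0.43). Over both batches on high-fat diet the fold change was −0.94 ± 0.17 (adjusted p = 2.1e-04).

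The log2 fold change of Dgat2 with double loss differed from that with Bmal1 loss by −1.23 ± 0.34 (adjusted p = 0.012), a contrast in which 16.7% of all genes and 3 of the 10 passed. The call was lost without 5 libraries of batch 2 rich in keratinocyte or adipocyte transcripts (−0.99, adjusted p = 0.093) and without TMM scaling (−0.95, adjusted p = 0.052). With the replicate number as a block the difference was −0.66 (adjusted p = 0.34). Those numbers do not pair the animals, and Bmal1KO and controls of batch 2 share only 2 of them, so that fit cannot decide. The fold change with double loss differed from that with Vhl loss by −1.03 ± 0.35 (95% interval −1.75 to −0.31, adjusted p = 0.067). In that contrast 8.56% of all genes and none of the 10 passed. That second contrast passed under several other settings, among them DESeq2 (adjusted p = 0.023). The effects of Vhl loss and Bmal1 loss on Dgat2 differed by −0.20 ± 0.32, with a 95% interval of −0.86 to 0.47, in a contrast where 25.3% of all genes passed.

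Dgat1 encodes the other, structurally unrelated acyltransferase of that step. VhlKO animals held 5.58, 5.77, 7.24 and 8.47 CPM and their controls 8.74 to 11.3 with a median of 9.59. The groups did not overlap, and Dgat1 fell by 0.52 ± 0.14 on the log2 scale (adjusted p = 0.0026). Without TMM scaling, where the median of all genes was 0.35, the value was −0.18 (adjusted p = 0.35). In double knockouts it was at 7.30 ± 0.93 CPM (SD, n = 4) against 8.43 ± 1.11 (n = 6), a log2 difference of −0.22 ± 0.14 (adjusted p = 0.22). On chow the 3 Bmal1KO animals, at 3.95, 5.10 and 5.25 CPM, were below the 4 controls, at 5.42, 6.36, 7.55 and 9.62, but the fold change of −0.61 ± 0.25 did not pass (adjusted p = 0.24). On high-fat diet the Bmal1 differences were −0.10 ± 0.19 in batch 1 and −0.21 ± 0.12 in batch 2, neither past the threshold. Gpam, the mitochondrial enzyme of the first acylation, had 9 to 42 counts per library and group means of 1.27 to 2.499 CPM. No comparison called it; its largest differences between 2 groups were −0.45 ± 0.30 with Vhl loss (adjusted p = 0.25) and −0.44 ± 0.37 with diet in Bmal1 knockouts (adjusted p = 0.62).

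**Figure D2:**
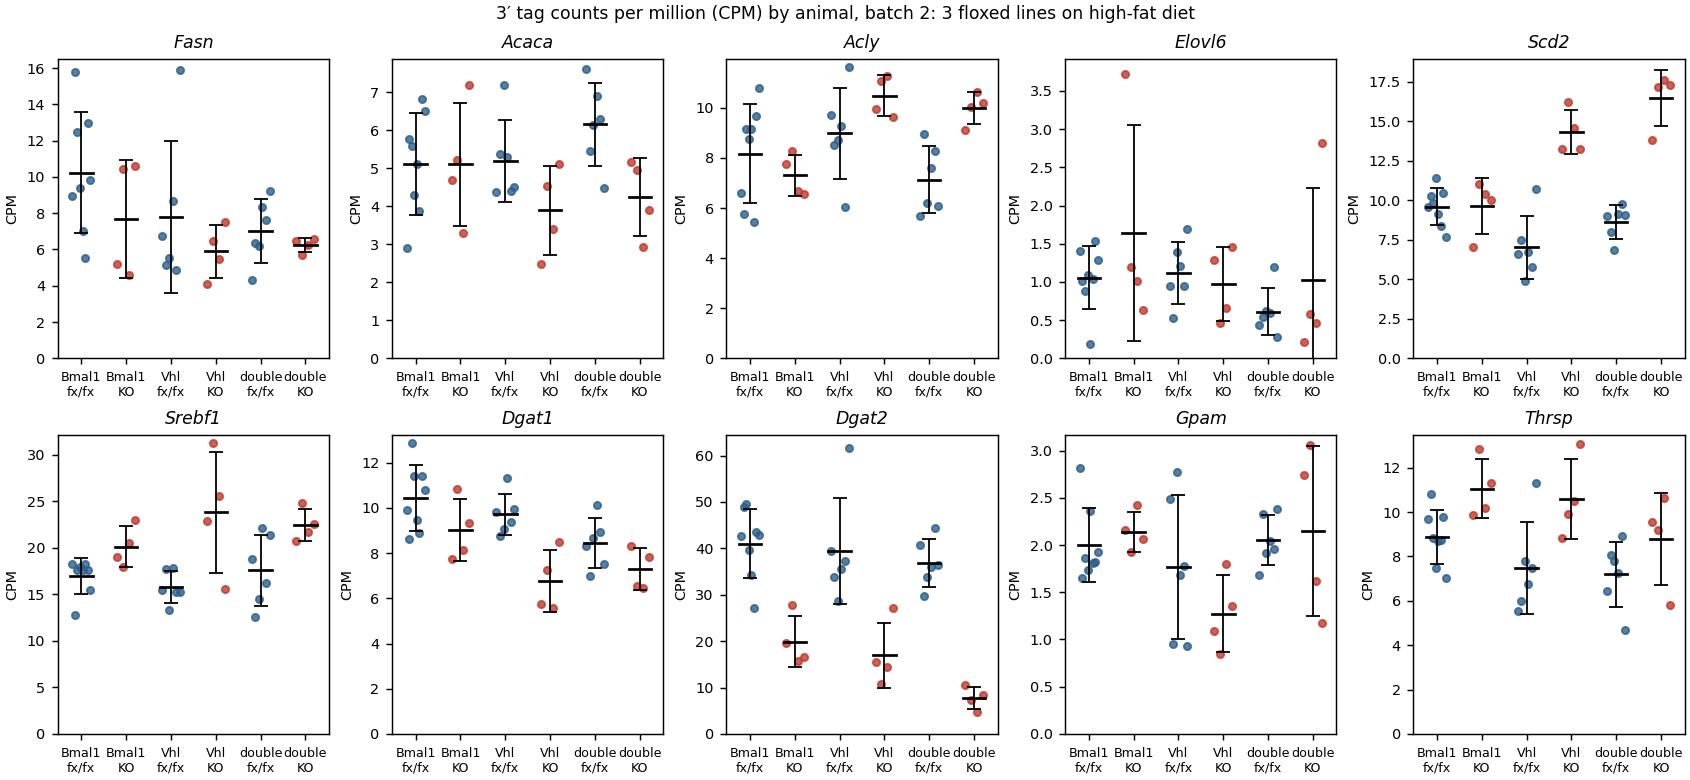
CPM of each gene (panels, y axes from 0) in batch 2, 1 point per animal, with the group mean as a line and its SD as a bar that stops at 0; controls are blue and knockouts red. The 4 double knockouts have 4.78 to 10.6 CPM of Dgat2 against 29.6 to 44.4 in their controls, and 13.8 to 17.7 CPM of Scd2 against 6.83 to 9.78.

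Scd2, a stearoyl-CoA desaturase on chromosome 19 (44293674 to 44306864, plus strand), rose with loss of Vhl, alone or with Bmal1. VhlKO animals held 13.2, 13.3, 14.6 and 16.2 CPM and their controls 4.91 to 10.7 with a median of 6.68. Double knockouts held 13.8, 17.2, 17.3 and 17.7 CPM and their controls 6.83 to 9.78 with a median of 9.04. In both lines every knockout was above every control. The log2 fold changes were 1.00 ± 0.14 (adjusted p = 1.9e-07) and 0.95 ± 0.14 (adjusted p = 1.8e-07), and they differed by −0.06 ± 0.20 (95% interval −0.46 to 0.34). With Bmal1 loss alone Scd2 was at 9.64 ± 1.77 CPM (n = 4) against 9.60 ± 1.19 (n = 8) in batch 2, a log2 difference of 0.01 ± 0.13. Its change with Vhl loss exceeded its change with Bmal1 loss by 0.99 ± 0.20 (adjusted p = 1.3e-04), and that of double loss exceeded it by 0.93 ± 0.19 (adjusted p = 3.6e-04). In batch 1 Scd2 was 0.36 ± 0.18 higher in Bmal1KO on high-fat diet (adjusted p = 0.28) and 0.01 ± 0.24 higher on chow (adjusted p = 0.99).

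Elovl6, the elongase that turns palmitate into stearate, was counted 1 to 38 times per library, too few for a firm statement. Its standard errors were 0.45 to 0.75 on the log2 scale in the comparisons of 2 groups. The highest values of batch 2 were 3.72 CPM in Bmal1KO animal 6 and 2.82 CPM in double knockout animal 4, the libraries with the most keratinocyte transcripts. The other 3 animals of those groups held 0.628 to 1.20 and 0.219 to 0.582 CPM. The log2 difference was 0.78 ± 0.53 with double loss and 0.60 ± 0.45 with Bmal1 loss in batch 2. With 1 library left out these ran from −0.45 to 1.08 and from −0.14 to 0.86. Over the other settings, some without these libraries, they ran from −0.47 to 1.10 and from −0.56 to 0.68, so neither sign held. Whether keratinocyte transcripts are the cause was not tested. No comparison called the gene.

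Fasn, Acaca and Acly form the route from citrate to palmitate. Acly, which feeds it, was at 9.10, 10.0, 10.2 and 10.6 CPM in double knockouts and at 5.67 to 8.96 in their controls, with a median of 6.90. All 4 knockouts were above all 6 controls, and Acly rose by 0.49 ± 0.16 (adjusted p = 0.011). In VhlKO it was at 10.5 ± 0.81 CPM (n = 4) against 8.98 ± 1.82 (n = 6), a log2 difference of 0.22 ± 0.16 (adjusted p = 0.29). With Bmal1 loss in batch 2 it was at 7.31 ± 0.83 CPM (n = 4) against 8.17 ± 1.96 (n = 8). The change with double loss exceeded that with Bmal1 loss by 0.65 ± 0.22 (adjusted p = 0.032), a call that was lost when any 1 of 10 libraries was left out (adjusted p up to 0.075).

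Acaca, the carboxylase that makes malonyl-CoA in the cytosol, was at 2.93, 3.91, 4.95 and 5.15 CPM in double knockouts. Their controls held 4.48 to 7.61 CPM with a median of 6.23, so that the upper pair of knockouts lay above the lowest control and below the other 5. Acaca fell by 0.55 ± 0.21 (adjusted p = 0.038). That call was lost without double knockout animal 3 or 4, or without control animal 1, 3, 4 or 5 (adjusted p up to 0.18), and without TMM scaling (−0.20, adjusted p = 0.43). In VhlKO the difference was −0.40 ± 0.22 (adjusted p = 0.16), and with Bmal1 loss in batch 2 it was −0.01 ± 0.20. Among chow-fed animals Acaca was at 4.03, 4.54 and 5.10 CPM in Bmal1KO and at 4.07, 6.56, 6.59 and 10.4 CPM in controls (−0.60 ± 0.26, adjusted p = 0.26). The highest animal of each group, chow control 2 and chow Bmal1KO animal 1, is the one with lymphocyte transcripts. Over the other settings, among them a fit without these animals, the difference ran from −0.60 to −0.37 and did not pass. With 1 library left out it ran from −0.79 to −0.32 and did not pass. Whether lymphocyte transcripts have a part in the Acaca values was not tested further.

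Fasn was not called in any comparison. In batch 1 on high-fat diet it ran from 6.97 to 11.1 CPM in Bmal1KO and from 2.41 to 11.3 CPM in controls, with medians of 8.56 and 5.97 and a log2 difference of 0.50 ± 0.25 (adjusted p = 0.29). In batch 2 the sign was the other way: Bmal1KO animals held 4.58, 5.19, 10.4 and 10.6 CPM and controls 5.53 to 15.8, a log2 difference of −0.41 ± 0.29 (adjusted p = 0.44). The difference between the batches was −0.92 (unadjusted p = 0.045, adjusted p = 0.88). The mean adipocyte score of Bmal1KO was also above that of controls in batch 1 on high-fat diet and below it in batch 2. Its share cannot be told from that of genotype. Fasn was at 5.89 ± 1.47 CPM in VhlKO against 7.81 ± 4.19 in Vhlfx/fx, and at 6.24 ± 0.40 CPM in double knockouts against 7.02 ± 1.75. The spread of the controls was wide, with Vhlfx/fx animal 6 at 15.9 CPM and the other 5 at 4.87 to 8.68.

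Of the regulators, Thrsp rose in Bmal1KO of batch 1 on high-fat diet. The knockouts held 6.66, 7.45, 8.20, 9.50 and 10.2 CPM and the controls 3.09 to 8.14 with a median of 4.10. Control animal 5 was the one control within the knockout range; the other 6 were at or below 5.11 CPM. The fold change was 0.85 ± 0.19 (adjusted p = 0.0023). On chow the knockouts held 6.47, 6.67 and 8.74 CPM and the controls 5.55, 6.89, 7.66 and 9.54, a difference of −0.02 ± 0.25 (adjusted p = 0.99). The difference between high-fat diet and chow was −0.67 ± 0.21 in controls (adjusted p = 0.079) and 0.20 ± 0.24 in knockouts (adjusted p = 0.75). Neither passed. The diet test in controls and the Bmal1 test on high-fat diet share the same high-fat-diet controls. The test of diet by genotype gave 0.87 ± 0.31 with an unadjusted p of 0.0089 and an adjusted p of 1, so the difference between genotypes did not pass. Without control animal 5 the diet difference in controls was −0.85 and passed (adjusted p = 0.0089). With any other single library left out it did not pass (adjusted p up to 0.29).

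In batch 2 Thrsp was at 9.89, 10.2, 11.3 and 12.8 CPM in Bmal1KO and at 7.05 to 10.8 CPM with a median of 8.78 in controls (0.31 ± 0.15, adjusted p = 0.19). All 4 knockouts were above 7 of the 8 controls. Over both batches Thrsp rose by 0.58 ± 0.12 (adjusted p = 2.0e-04), and the effect of batch 2 was 0.54 lower than that of batch 1 (unadjusted p = 0.023, adjusted p = 0.85). VhlKO animals held 8.85, 9.93, 10.5 and 13.1 CPM and their controls 5.56 to 11.3 with a median of 7.11. All 4 knockouts were above 5 of the 6 controls, and the call (0.48 ± 0.17, adjusted p = 0.020) was lost without VhlKO animal 4 (0.38, adjusted p = 0.10) or Vhlfx/fx animal 1 (0.41, adjusted p = 0.056). In double knockouts Thrsp was at 5.79, 9.17, 9.54 and 10.6 CPM against 4.67 to 8.91, a difference of 0.29 ± 0.17 that did not pass (adjusted p = 0.18). Without animal 4, the lowest and the one with keratinocyte transcripts, it was 0.44 and passed (adjusted p = 0.040).

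Srebf1 was higher in VhlKO, at 15.6, 22.9, 25.6 and 31.3 CPM against 13.4 to 17.8 with a median of 15.4 in controls. VhlKO animal 4 lay among the controls and the other 3 above all of them (0.60 ± 0.14, adjusted p = 6.9e-04). Double knockouts held 20.7, 21.7, 22.6 and 24.8 CPM and their controls 12.6 to 22.2 with a median of 17.5. The groups overlapped, and the call (0.36 ± 0.14, adjusted p = 0.037) was lost when any of 6 libraries was left out (adjusted p up to 0.13). In Bmal1KO of batch 2 Srebf1 was at 20.1 ± 2.19 CPM (n = 4) against 17.0 ± 1.92 (n = 8), a difference of 0.25 ± 0.13 (adjusted p = 0.24). In batch 1 it was −0.08 ± 0.13 on high-fat diet and 0.23 ± 0.17 on chow, neither past the threshold. The annotated 3′ end of Srebf1 on chromosome 11 overlaps that of Rai1, on the opposite strand, by 109 bases, and no source used here gives the strand setting of the counting. Rai1 was 0.20 ± 0.14 lower with Vhl loss (adjusted p = 0.27) and 0.37 ± 0.14 lower with double loss (adjusted p = 0.029). Whether the overlap has a part in the Srebf1 values was not tested.

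**Figure D3:**
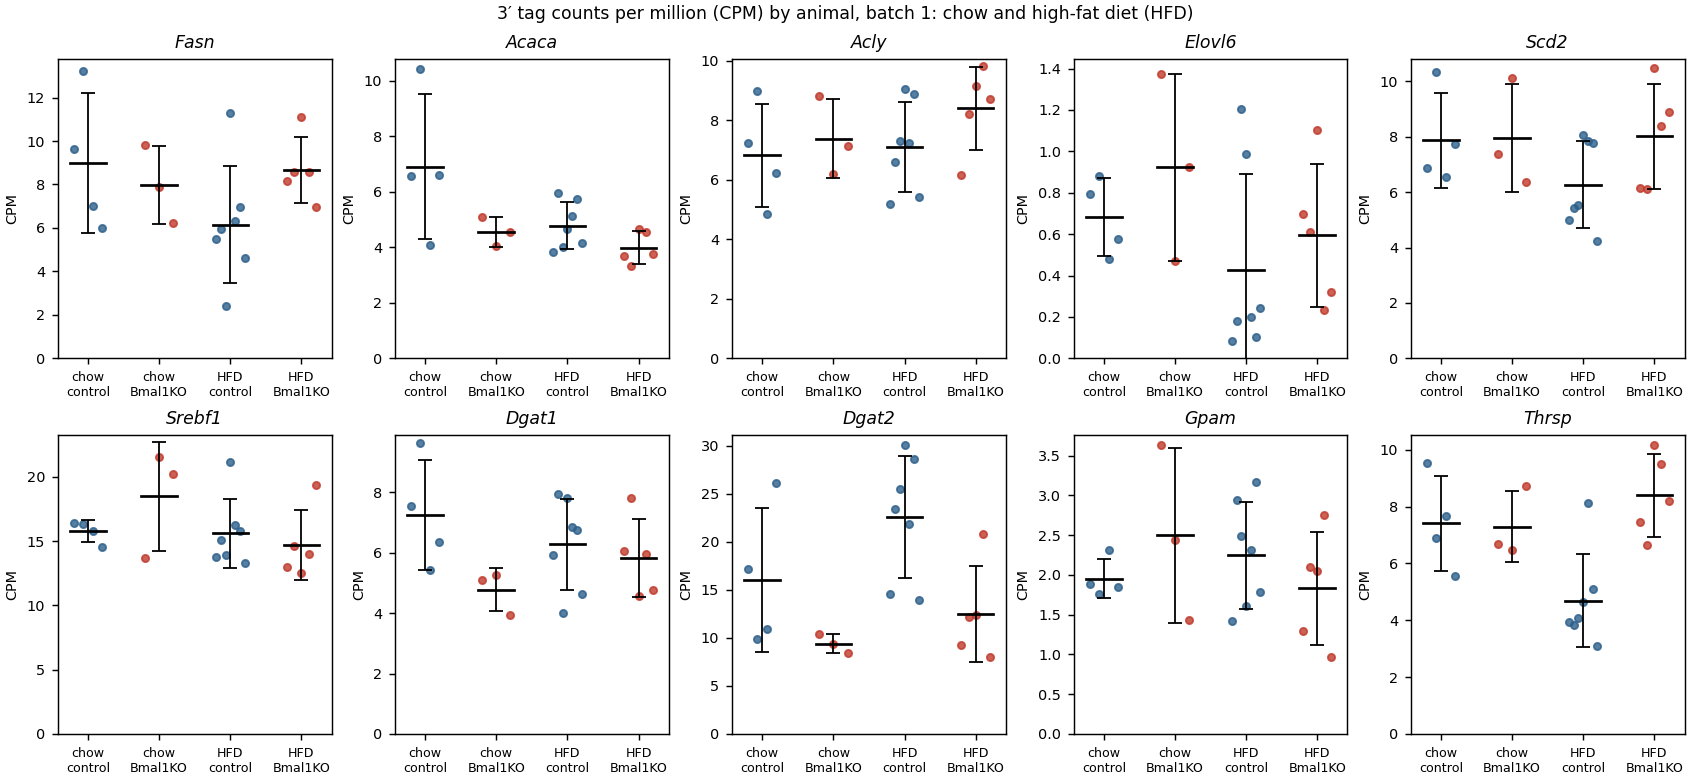
CPM of each gene (panels, y axes from 0) in batch 1, 1 point per animal, with the group mean as a line and its SD as a bar that stops at 0; controls are blue and Bmal1KO red. On high-fat diet the 5 Bmal1KO animals hold 6.66 to 10.2 CPM of Thrsp, above 6 of the 7 controls.

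RefSeq start-site windows (GRCm38.p6) were given for 7 of the 10 genes: Fasn, Acaca, Acly, Elovl6, Srebf1, Gpam and Thrsp; Scd2, Dgat1 and Dgat2 are named only. Each window was searched on both strands for CACGTG, the E-box that BMAL1 is known to bind; ACGTG and GCGTG, cores of hypoxia response elements; TCACNCCAC, a sterol element; and CCAAT, the NF-Y box. ACGTG is contained in CACGTG. Over 32851 windows of all genes, 7.15% held CACGTG, 19.6% ACGTG, 32.4% GCGTG, 1.24% TCACNCCAC and 37.4% CCAAT. No window of the 7 genes held CACGTG or TCACNCCAC. The Fasn window held 3 matches to GCGTG and 3 to CCAAT, that of Elovl6 held 1 to ACGTG and 1 to GCGTG, and that of Acaca held none of the 5 motifs. Of the 2 Gpam windows, one held 1 match to CCAAT and the other 2 to GCGTG. Just after the start, outside the stretch printed, Acly also held GCGTG and CCAAT. The 250 bases before the start are shown for the regulators Thrsp and Srebf1 and for Acly, genes called in a knockout, 5′ to 3′ on the gene's strand with motif matches in capitals. In that of Thrsp (chr7:97417551-97417800, minus strand) CCAAT or its complement lies 79 and 52 bases before the start. Of the 3 Srebf1 starts, the window nearest the 3′ end (chr11:60210472-60210721, minus strand) has one such match 30 bases before it, and the window farthest upstream has one 166 bases before its start; 3′ counts cannot tell the starts apart. In that of Acly (chr11:100528001-100528250, minus strand) ACGTG lies 71 bases before the start, on the complementary strand. A match is a description of letters and not a binding site.
Thrsp: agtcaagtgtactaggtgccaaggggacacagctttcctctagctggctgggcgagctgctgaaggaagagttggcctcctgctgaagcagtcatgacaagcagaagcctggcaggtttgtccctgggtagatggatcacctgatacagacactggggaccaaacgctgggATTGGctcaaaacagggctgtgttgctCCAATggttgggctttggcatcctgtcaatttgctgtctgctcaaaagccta
Srebf1: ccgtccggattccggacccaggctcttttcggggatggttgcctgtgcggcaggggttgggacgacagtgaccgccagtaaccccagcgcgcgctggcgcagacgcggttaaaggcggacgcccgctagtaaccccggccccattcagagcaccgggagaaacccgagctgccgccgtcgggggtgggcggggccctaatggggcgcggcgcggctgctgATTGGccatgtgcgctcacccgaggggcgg
Acly: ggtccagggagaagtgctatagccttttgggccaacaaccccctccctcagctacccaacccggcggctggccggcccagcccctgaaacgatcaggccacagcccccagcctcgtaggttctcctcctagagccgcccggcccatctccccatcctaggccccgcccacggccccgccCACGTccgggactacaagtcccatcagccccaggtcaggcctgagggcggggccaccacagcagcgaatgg

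Other genes of the pathway were taken from lists by function, and their counts stand beside the shares of all genes called: 9.00% with Bmal1 loss on high-fat diet in batch 1, 3.84% on chow, 13.9% in batch 2, 37.2% with Vhl loss and 35.4% with double loss. Mid1ip1, a paralog of Thrsp that binds acetyl-CoA carboxylase, fell in all 5 knockout comparisons. With Bmal1 loss it was at 2.54 ± 0.61 CPM against 5.92 ± 0.84 in the high-fat-diet animals of batch 1 (−1.22 ± 0.23, adjusted p = 3.3e-04), and it fell by 1.74 ± 0.31 on chow (adjusted p = 3.2e-04) and by 1.57 ± 0.18 in batch 2 (adjusted p = 2.7e-09). It fell by 0.66 ± 0.18 with Vhl loss (adjusted p = 0.0032) and by 1.75 ± 0.19 with double loss (adjusted p = 2.0e-10). Of the 8 genes of acetyl-CoA and NADPH supply tested, 1 was called in each Bmal1 comparison of batch 1, 2 in that of batch 2, and 3 each with Vhl loss and double loss, where the count is about the share of all genes. Me1, malic enzyme, fell by 0.58 ± 0.07 with Vhl loss, and Acacb, the carboxylase of the mitochondrial surface, fell by 0.60 ± 0.10 with double loss.

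In glycerolipid assembly Agpat3, an acylglycerophosphate acyltransferase, rose in all 5 knockout comparisons, by 0.82 ± 0.09 and 0.86 ± 0.12 with Bmal1 loss on high-fat diet and chow in batch 1 and by 0.84 ± 0.06 in batch 2. With double loss it was at 124 ± 9.87 CPM against 57.5 ± 4.03 (1.11 ± 0.07, adjusted p = 1.9e-18), and with Vhl loss it rose by 0.38 ± 0.07 (adjusted p = 2.3e-05). Lpin1, a phosphatidate phosphatase, was the one gene of the pathway lists that diet called: it fell by 0.55 ± 0.10 in controls (adjusted p = 0.0012) and by 0.80 ± 0.11 in Bmal1 knockouts (adjusted p = 5.0e-05). Of the 10 genes of this list tested, 3 were called with Bmal1 loss on high-fat diet in batch 1 (2 higher), 1 on chow, 2 in batch 2 (1 higher), 4 with Vhl loss (3 higher) and 5 with double loss (4 higher). The count with Vhl loss is near the 37.2% of all genes. Gpat4, an enzyme of the first acylation in the endoplasmic reticulum, fell by 0.43 ± 0.09 with Vhl loss and by 0.41 ± 0.09 with double loss.

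Of the genes of elongation and desaturation tested, 10 in batch 1 and 11 in batch 2, 1 was called in each Bmal1 comparison of batch 1, 2 in that of batch 2 and 3 each with Vhl loss and double loss, the last below the shares of all genes. Tecr, the reductase that ends an elongation cycle, rose with Bmal1 loss by 0.73 ± 0.10, 0.87 ± 0.13 and 0.34 ± 0.10 in the 3 comparisons. Elovl5 rose by 0.44 ± 0.12 with Vhl loss and by 0.74 ± 0.12 with double loss, and Hacd1, a dehydratase of the cycle in muscle, fell by 0.49 ± 0.12 and 0.72 ± 0.11. Of 13 lipogenic transcription genes, none was called with diet or with Bmal1 loss. Vhl loss called 5 (3 higher) and double loss 4 (all lower), near the 37.2% and 35.4% of all genes. Mlxipl, which encodes the carbohydrate-responsive factor ChREBP, fell by 1.37 ± 0.11 with Vhl loss, from 25.5 ± 2.43 to 9.86 ± 1.21 CPM, and by 0.95 ± 0.10 with double loss. Of 13 cholesterol synthesis genes tested in batch 2, 2 fell with Vhl loss, below the 37.2% of all genes, and 4 with double loss, near the 35.4%; none was called with Bmal1 loss. Fdft1, squalene synthase, fell by 1.00 ± 0.12 and 1.40 ± 0.12.

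Because whole muscle holds fat cells, each of the 10 genes was set against the adipocyte score among animals of the same group. Log2 CPM and score were centred on group means, p-values came from two-sided permutation within groups, and adjustment was over the 20 relations of 10 genes in 2 batches. Fasn followed the score most closely, with r = 0.83 (rho = 0.85, permutation p = 7.0e-05, adjusted p = 7.0e-04) over the 19 libraries of batch 1 and r = 0.81 (rho = 0.77, permutation p = 1.0e-05, the smallest the permutations can give, adjusted p = 2.0e-04) over the 32 of batch 2. Without the 2 libraries farthest from the median score r was 0.93 and 0.74. Acly passed in both batches (r = 0.70, permutation p = 0.0043, and r = 0.49, permutation p = 0.0058; adjusted p = 0.017 and 0.019; rho = 0.72 and 0.41), and r was 0.62 and 0.43 without the 2 farthest libraries; the rank correlation of batch 2 had an adjusted permutation p of 0.051. Acaca passed in batch 1 (r = 0.62, rho = 0.62, permutation p = 0.016, adjusted p = 0.035) and not in batch 2 (r = 0.36, rho = 0.37, adjusted permutation p = 0.11). Dgat1 (r = 0.62, rho = 0.67, permutation p = 5.0e-04, adjusted p = 0.0033) and Dgat2 (r = 0.58, rho = 0.55, permutation p = 0.0037, adjusted p = 0.017) passed in batch 2; without the 2 farthest libraries r was 0.69 and 0.53, and in batch 1 r was 0.55 and 0.15. Scd2 (r = 0.51, rho = 0.42, permutation p = 0.015, adjusted p = 0.035) and Thrsp (r = 0.49, rho = 0.50, permutation p = 0.0071, adjusted p = 0.020) also passed in batch 2, but r fell to 0.29 and 0.27 without the 2 farthest libraries, so these relations rest in part on those libraries, and the rank correlation of Scd2 had an adjusted permutation p of 0.064. Srebf1, Gpam and Elovl6 passed in neither batch. With a score of 4 Schwann cell genes no relation passed adjustment.

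**Figure D4:**
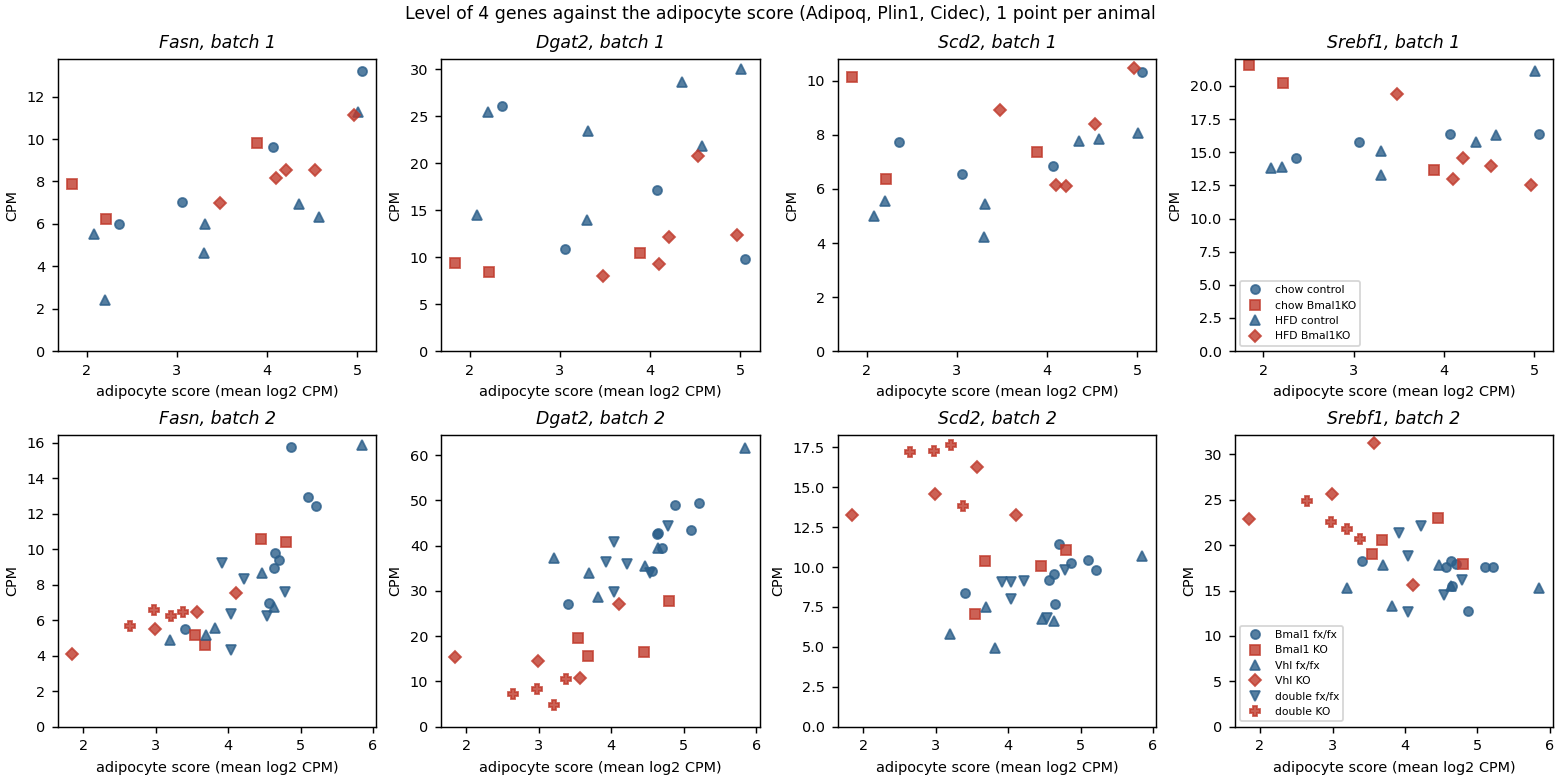
CPM of Fasn, Dgat2, Scd2 and Srebf1 (y axes) against the adipocyte score (x axes, mean log2 CPM of Adipoq, Plin1 and Cidec), batch 1 above and batch 2 below, 1 point per animal with a shape for each group, controls blue and knockouts red. Fasn climbs with the score in both batches, while in batch 2 the 8 VhlKO and double knockout animals, with scores of 1.85 to 4.11, have the highest Scd2 (13.2 to 17.7 CPM).

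Of the 10 adipocyte markers, Vhl loss called 4 lower and 1 higher, and double loss called 5 lower and 1 higher, beside 37.2% and 35.4% of all genes. The median log2 fold change of these markers was −0.91 and −0.87. By its median their summed level, in which the most abundant markers weigh most, went the other way from the score. It was 504 to 739 CPM in VhlKO (median 548) against 378 to 1064 in controls (median 435). In the double knockout it was 720 to 1032 CPM (median 884) against 407 to 744 (median 580). No marker was at 0 in every library of a group. With the score as a covariate Scd2 was 1.23 ± 0.15 and 1.17 ± 0.15 higher with Vhl loss and double loss, and Dgat2 was −0.83 ± 0.21 (adjusted p = 0.0022) and −1.85 ± 0.22 (adjusted p = 1.5e-07). Dgat2 with Bmal1 loss in batch 2 was −0.87 ± 0.17 (adjusted p = 6.8e-04), and Thrsp with Bmal1 loss in batch 1 was 0.74 ± 0.19 (adjusted p = 0.0067). Calls were lost for Dgat1 with Vhl loss (−0.31 ± 0.14, adjusted p = 0.085) and for Acaca (−0.31 ± 0.24, adjusted p = 0.33) and Srebf1 (0.28 ± 0.16, adjusted p = 0.18) with double loss. Fasn turned from −0.17 ± 0.32 to 0.59 ± 0.20 (adjusted p = 0.019) with double loss. Acly with Vhl loss (0.46 ± 0.17, adjusted p = 0.031), Thrsp with double loss (0.56 ± 0.17, adjusted p = 0.0085) and Thrsp with Bmal1 loss in batch 2 (0.42 ± 0.14, adjusted p = 0.034) passed in that fit and not in the fit without the score. The score itself differs between knockouts and controls, so the fit cannot tell its share from that of genotype.

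**Figure D5:**
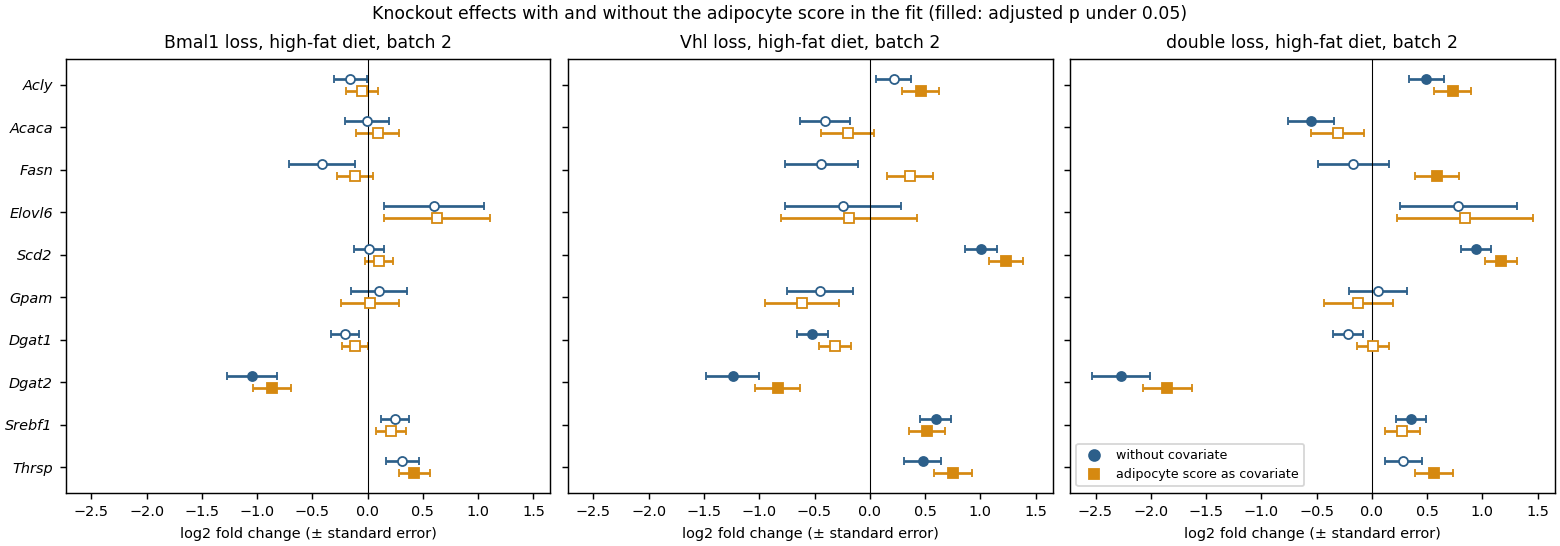
Log2 fold change ± standard error of each gene (rows) for the 3 knockouts of batch 2 (panels), without the adipocyte score (blue circles) and with it as a covariate (orange squares); filled symbols have an adjusted p under 0.05. Dgat2 stays left of 0 and filled in all 3 panels, and Fasn crosses from −0.17 to 0.59 with double loss.

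Over all 51 libraries, centred on group means, the genes most like each of the 10 were found among 12454 genes by Pearson correlation of log2 CPM, as a description in which all points share a library. Fasn was most like Plin1 (r = 0.80), Npr3 (0.80) and Cidec (0.78), of which Plin1 and Cidec encode lipid droplet proteins and are part of the score. Dgat2 was most like Cd36, a fatty acid transporter (r = 0.77), Lpgat1 (0.74) and Agpat2 (0.70). Acly was most like Pck1 (0.68), Trf (0.66) and S100a11 (0.66), and Dgat1 most like Gstz1 (0.67), Slc7a10 (0.64) and Ffar2 (0.62). Scd2 was most like Ltc4s, Lrg1 and Ifnar2 (0.62 to 0.63), Thrsp most like Mest, Cercam and Bmp3 (0.59 to 0.60), and Acaca most like Grk6, Utrn and Setd2 (0.57 to 0.62). For Srebf1 (Dhodh, Champ1, Sp2), Gpam (Bbs1, Ets2, Zbtb45) and Elovl6 (Sbsn, Mrpl23, Sdc1) the highest r was 0.57 to 0.59.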

How the data were processed

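Gastrocnemius RNA (300 ng) was made into 3′ libraries with Lexogen QuantSeq, per the labels' protocols. FastQC 0.11.4, STAR 2.6.0, HTSeq (version not given), edgeR 3.26.8 and the builds mm10 and GRCm38.p4 are named in the submitters' processing notes. The deposited counts are raw read counts per gene symbol, 1 table per batch. The deposited normalized counts, treated as signal, served only an alternative, limma on log2(value + 1). No sample column was left out. Animals are numbered by sample title, and the column headers number some Bmal1KO animals of batch 2 differently. In batch 2, 27 symbols were turned into dates and take part under those names.

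Here edgeR 4.0.16 (R 4.3.3) was run per batch on all its groups, with TMM scaling, filterByExpr and a robust quasi-likelihood fit. Benjamini-Hochberg adjustment ran over all genes tested, and standard errors were |log2 fold change| divided by the square root of F. CPM used TMM-scaled sizes, and log2 CPM a prior count of 2. Batches were fitted apart, since they differ in groups, except in the fit of the 24 high-fat-diet Bmal1fx/fx and Bmal1KO libraries with a batch term. Intervals are 95%. The steps were tested on simulated counts. DESeq2 1.42.0, limma 3.58.1, other scalings, filters, covariates and leaving out each library were alternatives.

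The 10 genes, the lists and the tests were chosen with earlier results of these data known. Named were all 10 genes, up to 4 called genes with the smallest p of each pathway list and comparison (the text gives a selection of these), and the 3 genes most like each of the 10. Gene positions came from GENCODE M21 (GRCm38) and promoters from RefSeq. Sums of marker genes and scores describe libraries and assign no cells.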

Additional observations from a re-analysis of the deposited data

Results flagged for a closer look

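Of 90 sets of 1 gene in 1 group of 4 to 10 animals, 8 had an animal whose gap to its neighbour was large against the range of the group; about 5% would by chance. Vhlfx/fx animal 6, which had the highest adipocyte score (5.85), held 61.65 CPM of Dgat2 (next 39.5) and 15.88 CPM of Fasn (next 8.675). Vhlfx/fx animal 3 held 7.183 CPM of Acaca (next 5.368). Double knockout animal 4, with keratinocyte transcripts, held 2.817 CPM of Elovl6 (next 0.5825), and control animal 5 of that line held 1.196 CPM (next 0.6149). Double knockout animal 1 was the lowest of its group for Scd2, at 13.81 CPM (next 17.18). In batch 1 on high-fat diet, control animal 4 held 21.14 CPM of Srebf1 (next 16.28) and control animal 5 held 8.142 CPM of Thrsp (next 5.115).

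Among the 10 genes, 4 tests of a difference between knockout effects passed. For double against Bmal1 loss 3 of the 10 passed, beside 16.7% of all genes. For Vhl against Bmal1 loss 1 of the 10 passed, beside 25.3%, and for double against Vhl loss none, beside 8.56%. The log2 fold change with double loss differed from that with Bmal1 loss by 0.6505 for Acly (adjusted p = 0.032), 0.933 for Scd2 (adjusted p = 3.6e-04) and −1.227 for Dgat2 (adjusted p = 0.012), and that with Vhl loss differed from that with Bmal1 loss by 0.9913 for Scd2 (adjusted p = 1.3e-04), all from edgeR's quasi-likelihood test. The differences for Acly and Dgat2 did not pass under the replicate block (0.40, adjusted p = 0.52, and −0.66, adjusted p = 0.34). Replicate numbers do not pair the animals, so that fit cannot decide. The call for Acly was also lost when any of 10 libraries was left out, and the call for Dgat2 without TMM scaling or without 5 libraries. The knockouts come from separate lines with their own controls.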

How the results depend on the processing

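Vhl loss called 5 of the 10 genes under each setting run, but without TMM scaling (Acly 0.56, adjusted p = 0.0060) or with the adipocyte score Acly took the place of Dgat1 (4 to 5 with a library left out). Double loss called 4 to 5 (3 to 5 with one left out), not always the same genes. Without TMM scaling Acaca was lost and Thrsp passed (0.64, adjusted p = 0.0039). Without the 5 libraries rich in keratinocyte or adipocyte transcripts Acaca (adjusted p = 0.069) and Srebf1 (adjusted p = 0.10) were lost, and Thrsp passed (0.43, adjusted p = 0.030). With the adipocyte score Acaca and Srebf1 were lost, and Fasn and Thrsp passed. Diet in Bmal1 knockouts and diet by genotype called 0 throughout. Diet in controls called 1 (Thrsp) without TMM scaling or without the low-count filter, and 0 to 1 with a library left out. On high-fat diet in batch 1, loss of Bmal1 called 2 (Dgat2 added) with a non-robust fit, the Schwann cell score, the replicate block, DESeq2 or both batches in 1 fit, and 1 to 2 with a library left out (Fasn added without control 4, 0.71, adjusted p = 0.038). On chow the Schwann cell score gave 1 (Dgat2) and leave-outs 0. Bmal1 loss in batch 2 called 2 (Thrsp added) with the adipocyte score or both batches, and 1 in each leave-out. Double against Bmal1 loss gave 1 with the replicate block, 2 without TMM scaling or without 5 libraries (Dgat2 lost), 4 with the adipocyte score (Fasn added, 0.70, adjusted p = 0.035) and 2 to 3 in leave-outs. Double against Vhl loss gave 1 (Dgat2) with a non-robust fit, the adipocyte score, the replicate block, DESeq2 or without 5 libraries, and 0 to 1 in leave-outs. Vhl against Bmal1 loss gave 3 without TMM scaling (Acly and Srebf1 added) and 1 to 2 in leave-outs. Fasn with double loss turned to 0.591 with the adipocyte score. The cause of these changes was not tested. Without TMM scaling the median log2 fold change of all genes was 0.35 with Vhl loss and 0.37 with double loss.

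Replicate numbers did not pair the animals: correlations of same-numbered deviations ran from −0.293 to 0.174, and no comparison had all pairs over 0.1. Under the replicate block Srebf1 with double loss (0.37, adjusted p = 0.14) and Acly (0.40, adjusted p = 0.52) and Dgat2 (−0.66, adjusted p = 0.34) in double against Bmal1 loss did not pass. The mitochondrial, keratinocyte and lymphocyte settings and the fit over both batches were added after seeing the data. Elovl6 (1 to 38 counts per library) and Gpam (9 to 42) are limited by depth.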
